A study of Mus musculus with 7 samples.

Results

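The adrenomedullin and CGRP receptor system was followed in the mouse aorta through 5 of the 31253 genes in the files. The genes were chosen by name as a ligand gene, its receptor gene and the partner genes of that receptor: Adm, which encodes the peptide adrenomedullin, Calcrl, which encodes the receptor it binds, and Ramp1, Ramp2 and Ramp3, which encode the receptor's partner proteins. Gene expression was read cell by cell on the BD Rhapsody system, in which every cell is trapped in a well with a bead that carries its barcode, and a unique molecular identifier (UMI) lets each captured transcript be counted once. The 4 endothelial knockout libraries came from Slc38a2deltaEC mice and the 3 flox control libraries from Slc38a2flox/flox mice, in which recombination sites flank the Slc38a2 alleles. The protein made from Slc38a2 brings neutral amino acids into cells together with sodium. Mice of both genotypes had eaten a high-salt diet for 3 weeks, so no comparison here concerns the diet. The sources used here do not give the Cre driver, the deleted exons, or the age, sex and strain background of the mice. Whether each library is from its own animal is not stated either, so p-values describe only the spread among the 7 libraries, and that spread may be technical.

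Adrenomedullin and CGRP (calcitonin gene-related peptide) are vasodilator peptides that act through the same G-protein coupled receptor, CALCRL. CALCRL reaches the cell surface with a receptor activity-modifying protein, and that partner sets its ligand preference: with RAMP1 it forms the CGRP receptor, and with RAMP2 or RAMP3 it forms adrenomedullin receptors. The receptor signals mainly by raising cyclic AMP. In arteries CGRP is known chiefly as a peptide of perivascular sensory nerves, and adrenomedullin as a factor that relaxes vessels and keeps endothelial and lymphatic barriers tight. PAM adds the C-terminal amide that active adrenomedullin and CGRP need. ACKR3 has been described as a receptor that takes adrenomedullin up without classical signalling, and GPR182 was listed beside it here.

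The positions below are from GENCODE for build GRCm38, the assembly that mm10 names. Adm (ENSMUSG00000030790) lies on chromosome 7 from 110627661 to 110629820 on the plus strand, and Calcrl (ENSMUSG00000059588) on chromosome 2 from 84330626 to 84425411 on the minus strand. Ramp1 (ENSMUSG00000034353) lies on chromosome 1 from 91179822 to 91225196, Ramp2 (ENSMUSG00000001240) on chromosome 11 from 101246028 to 101259546 and Ramp3 (ENSMUSG00000041046) on chromosome 11 from 6658521 to 6677475, each on the plus strand. Exons of Ramp2 overlap exons of Vps25 on the same strand, so the counting could split reads between these genes, and Vps25 had 672 UMIs in kept cells against 47620 for Ramp2. The 250 bases before the RefSeq start of a gene (build GRCm38.p6) are shown for a ligand, a receptor and a partner gene with different leading cell types, with matches to 5 short motifs in capitals. For Calcrl the RefSeq start lies inside the GENCODE gene. The part of its stretch from 84425267 to 84425411, which holds its marked matches, is thus within the gene as placed above.
Adm, chr7:110627407-110627656, plus strand: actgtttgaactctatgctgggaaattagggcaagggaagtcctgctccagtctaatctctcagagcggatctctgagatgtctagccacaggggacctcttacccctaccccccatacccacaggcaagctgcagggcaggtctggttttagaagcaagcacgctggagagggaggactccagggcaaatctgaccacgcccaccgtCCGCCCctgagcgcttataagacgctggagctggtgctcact
Calcrl, chr2:84425267-84425516, minus strand: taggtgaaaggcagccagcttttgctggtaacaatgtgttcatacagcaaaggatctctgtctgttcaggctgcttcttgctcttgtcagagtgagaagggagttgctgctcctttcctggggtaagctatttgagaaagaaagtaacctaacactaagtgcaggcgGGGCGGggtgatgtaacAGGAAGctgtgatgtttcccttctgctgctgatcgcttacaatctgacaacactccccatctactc
Ramp1, chr1:91179572-91179821, plus strand: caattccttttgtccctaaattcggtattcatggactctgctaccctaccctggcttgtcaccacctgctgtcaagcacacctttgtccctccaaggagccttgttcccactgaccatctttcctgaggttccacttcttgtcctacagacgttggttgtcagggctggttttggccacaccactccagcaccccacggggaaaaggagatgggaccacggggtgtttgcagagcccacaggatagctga

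Both strands were searched for the GC box GGGCGG, the ETS core AGGAAG, the hypoxia response core ACGTG, the cyclic AMP response core TGACG and the CArG box. Motifs with letters given were searched in that spelling only, so other forms of the hypoxia response core were not counted. Adm held 1 GC box, Calcrl held 1 GC box and 1 ETS core, Ramp1 held none of the 5, and no matches shared bases. Of 27025 promoters of this length, 32.9% held the GC box, 29.2% the ETS core, 16.6% the hypoxia response core, 17.9% the cyclic AMP response core and 1.40% the CArG box, so each match shown is a common one and is a description of letters only.

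After cell filtering 67477 of 76359 barcodes remained. Each cell was placed by marker genes of each cell type, none of which is among the 5 genes, and a cell entered a type with at least 3 of its markers and a lead of at least 2 over any other type. This gave 1357 endothelial, 18723 smooth muscle, 35456 fibroblast, 3971 macrophage and 234 mast cells, while 10.2% of kept cells entered no type. The labels name goblet cells, the mucus-secreting cells of epithelia, but 0 cells held 3 or more of 7 goblet markers. Knockout 4 stands apart with 338 smooth muscle cells against 2028 to 5236 in the other libraries, and any value of smooth muscle cells in it rests on few cells. The libraries shared between 68 and 218 cell barcodes per pair, at most 1.79% of the smaller library. Levels are given in CPM, the UMIs of a gene per 1000000 UMIs of all genes in the cells of a type and library. Slc38a2 itself was read in endothelial cells at 231.7, 291.7, 335.6 and 279.1 CPM in knockouts 1 to 4 and at 461.2, 427.2 and 299.7 in flox controls 1 to 3. The groups overlap, and since the deleted exons are not known, this level is no check of the labels.

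Adrenomedullin mRNA came mostly from fibroblasts. Of 26636 Adm UMIs in kept cells, 88.7% were in fibroblasts, the matrix-producing cells of the outer wall, and 8.42% in smooth muscle. In fibroblasts Adm stood at 85.8, 139.2, 92.5 and 123.5 CPM in knockouts 1 to 4 and at 96.7, 121.1 and 88.6 in flox controls 1 to 3, and the groups overlap throughout. The means over all libraries were 13.5 ± 4.94 in endothelial cells, 25.4 ± 6.43 in smooth muscle, 107 ± 20.9 in fibroblasts and 12.5 ± 4.50 in macrophages (SD, n = 7), and 4.04 ± 4.36 in mast cells (SD, n = 5). Smooth muscle was below fibroblasts by a log2 fold change of -1.95 (SE 0.14, adjusted p = 9.68e-14), and endothelial cells were below smooth muscle by -1.38 (SE 0.25, adjusted p = 1.66e-05), both in edgeR's quasi-likelihood test with the library as a block. Endothelial cells and macrophages did not differ beyond their spread (log2 fold change -0.18, SE 0.28, adjusted p = 0.604).

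The order of Adm was thus fibroblasts, then smooth muscle, then endothelial cells and macrophages. Mast cells, with 3 Adm UMIs in 5 libraries, had the lowest mean but were not placed below endothelial cells (endothelial over mast cells, log2 fold change 1.86, SE 0.86, adjusted p = 0.083), and the difference passed without flox control 3 (1.96, adjusted p = 0.0463). The lower Adm values were set beside a measure of free RNA. The fibroblast gene Dcn, which encodes the matrix protein decorin, was read in endothelial cells at a median of 3.27% of its fibroblast level in the same library, while Adm was read there at 12.1%, with a range of 6.85% to 27.0%. In smooth muscle the same medians were 1.04% for Dcn and 23.5% for Adm. The 8 fibroblast markers of the gate were read very unequally in other cells. In smooth muscle their medians ran from 0.826% for Clec3b to 35.5% for Mfap5, with Col1a1 at 13.3%, 1.30% in the middle and 6.87% for the summed panel. In endothelial cells they ran from 1.13% for Fbln1 to 19.1% for Mfap5, with 2.80% for the summed panel. Adm thus lay below Mfap5 in both cell types and above the other 7 markers. The part of free RNA in the lower Adm values was not tested. Endothelial Adm rested on 65 UMIs in all libraries, and 21 of these lay in 52 lymphatic endothelial cells.

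The other peptide genes of the family had few UMIs. Adm2, which encodes adrenomedullin 2, had 4 UMIs in kept cells and Calcb, which encodes the second CGRP, had 10. Calca, which encodes CGRP and calcitonin, had 418 UMIs and was at 56.0 CPM in T cells (95% Poisson interval 36.6 to 82.1) and at 122 in the 25 NK and innate lymphoid cells (52.5 to 239.7, from 8 UMIs in 3 libraries). Of its UMIs 71 were in fibroblasts, 46 in mast cells and 26 in T cells, and 259 in cells that entered no type. Pam was read at 2437 CPM in endothelial cells, 1651 in smooth muscle, 1297 in fibroblasts and 97.4 in macrophages. Its difference between endothelial cells and smooth muscle did not pass the test (adjusted p = 0.393).

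**Figure D1:**
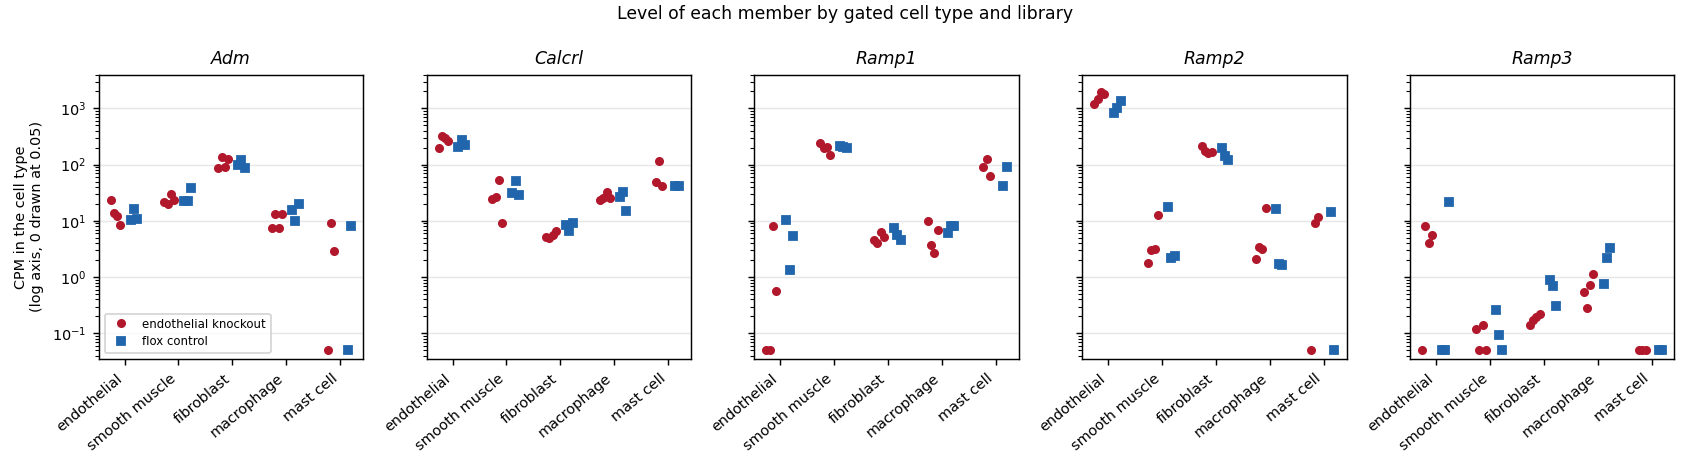
CPM of each of the 5 genes (log axis) in endothelial, smooth muscle, fibroblast, macrophage and mast cells, with 1 point per library coloured by genotype and zeros drawn at the foot of the axis. Adm was highest in fibroblasts (mean 107), Calcrl and Ramp2 in endothelial cells (255 and 1373) and Ramp1 in smooth muscle (202), while Ramp3 stayed low in all 5.

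The receptor gene Calcrl was highest in endothelial cells in all 7 libraries. Its level there was 199.3, 323.5, 298.5 and 263.9 CPM in knockouts 1 to 4 and 202.4, 278.0 and 219.5 in flox controls 1 to 3, from 41 to 468 UMIs per library. Means over libraries were 255 ± 48.9 in endothelial cells, 31.9 ± 15.2 in smooth muscle, 6.57 ± 1.59 in fibroblasts and 25.8 ± 6.0 in macrophages (SD, n = 7), and 58.1 ± 33.0 in mast cells (SD, n = 5). Endothelial cells were above smooth muscle by a log2 fold change of 2.67 (SE 0.19, adjusted p = 1.30e-13) and above fibroblasts by 5.10 (SE 0.20, adjusted p = 1.86e-19). Mast cells, smooth muscle and macrophages form the middle of the order, and none of the 3 differences among them passed. Smooth muscle over macrophages did pass without the low-count filter (log2 fold change 0.44, adjusted p = 0.0386), without flox control 3 (0.47, adjusted p = 0.0310) and without knockout 4 (0.41, adjusted p = 0.0358), and macrophages over mast cells passed in DESeq2 (-0.81, adjusted p = 0.0445). Smooth muscle cells were far more numerous than endothelial cells, and 44.6% of all Calcrl UMIs were in smooth muscle, 19.6% in endothelial cells and 17.9% in fibroblasts.

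Relative to its mean, the Calcrl level varied more between libraries in smooth muscle than in endothelial cells. It was 24.7, 26.5, 52.9 and 9.12 CPM in knockouts 1 to 4 and 31.6, 50.2 and 28.4 in flox controls 1 to 3. The lowest value is that of knockout 4, which rests on 13 UMIs. Smooth muscle Calcrl stood at a median of 12.95% of the endothelial level in the same library. The 8 endothelial markers of the gate ran there from 0.063% for Egfl7 to 1.02% for Pecam1, and their sum was at 0.403%. In fibroblasts the Calcrl median was 2.46%, while the markers ran from 0.058% for Egfl7 to 1.87% for Cytl1 and their sum was at 1.03%, with a range over libraries of 0.649% to 2.22%.

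Ramp1, the partner that gives the CGRP receptor, was a smooth muscle gene in these libraries. Its level in smooth muscle was 244.3, 194.1, 208.6 and 146.6 CPM in knockouts 1 to 4 and 215.9, 201.8 and 201.2 in flox controls 1 to 3. Means over libraries were 3.68 ± 4.26 in endothelial cells, 202 ± 29.3 in smooth muscle, 5.41 ± 1.19 in fibroblasts and 6.56 ± 2.64 in macrophages (SD, n = 7), and 82.2 ± 31.8 in mast cells (SD, n = 5). Smooth muscle was above fibroblasts by a log2 fold change of 5.34 (SE 0.18, adjusted p = 5.23e-21) and above mast cells by 1.75 (SE 0.28, adjusted p = 4.28e-06). For smooth muscle over mast cells the median over all genes was 0.49 in this fit and -0.01 without the TMM factor. Endothelial cells were below smooth muscle by -6.25 (SE 0.31, adjusted p = 4.29e-17), with 17 Ramp1 UMIs in all endothelial cells and none in knockouts 1 and 2. None of the 3 differences among endothelial cells, fibroblasts and macrophages passed in this fit, but those with endothelial cells passed in some alternatives. Endothelial over macrophage Ramp1 had an adjusted p of 0.0561, which was 0.042 in DESeq2, 0.030 without the low-count filter, 0.0213 with the stricter gate, 0.0339 with doublets kept, 0.0304 without flox control 1 and 0.00181 without knockout 3. Endothelial over fibroblast Ramp1 had an adjusted p of 0.102, and 5 alternatives gave 0.0114 to 0.0443. The gated lymphoid cells (151 T, 100 B, and 25 NK and innate lymphoid cells) shared a cluster with other immune cells. It also held 197 gated macrophages and 74 gated monocytes. Macrophage Ramp1 came in good part from few cells: 56 of its 116 UMIs lay in these 197 macrophages, which clustered with the gated lymphoid cells. Without those cells macrophages had 3.3 ± 1.4 CPM (SD, n = 7), fibroblasts were above macrophages by a log2 fold change of 0.69 (SE 0.26, adjusted p = 0.0199), and endothelial cells over macrophages gave -0.22 (SE 0.51, adjusted p = 0.720). With those cells included, the Ramp1 levels of endothelial cells, fibroblasts and macrophages were at medians of 0.672%, 2.78% and 4.05% of that of smooth muscle, beside 1.95%, 0.712% and 0.804% for the sum of the 8 smooth muscle markers. Single markers ran from 0% for Des to 5.51% for Mylk in endothelial cells, from 0.461% for Cnn1 to 2.69% for Des in fibroblasts and from 0.519% for Cnn1 to 2.97% for Mylk in macrophages.

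Ramp2, the partner that gives an adrenomedullin receptor, was led by endothelial cells and followed by fibroblasts. Endothelial levels were 1210, 1458, 1972 and 1771 CPM in knockouts 1 to 4 and 835.3, 1027 and 1338 in flox controls 1 to 3. Fibroblast levels were 214.2, 176.3, 160.8 and 167.1 in knockouts 1 to 4 and 195.1, 142.2 and 121.7 in flox controls 1 to 3. Means over libraries were 1373 ± 400 in endothelial cells, 6.10 ± 6.31 in smooth muscle, 168 ± 31.1 in fibroblasts and 6.47 ± 6.98 in macrophages (SD, n = 7), and 6.99 ± 6.64 in mast cells (SD, n = 5). Endothelial cells were above fibroblasts by a log2 fold change of 2.80 (SE 0.30, adjusted p = 2.50e-09) and above smooth muscle by 7.94 (SE 0.40, adjusted p = 4.93e-17). Smooth muscle, macrophages and mast cells did not differ from each other in this test. Ramp2 in smooth muscle was at a median of 0.209% of the endothelial value in the same library, which lies below the 0.403% of the summed endothelial markers and above 7 of the 8 single ones. In macrophages it was at 0.176%, beside 0.143% for the summed markers, which ran singly from 0.062% to 0.436%. In mast cells it was at 0.456%, beside 0.678% for the summed markers, of which 6 had a median of 0. Smooth muscle Ramp2 was highest in knockout 4 and flox control 1, with 12.6 and 17.5 CPM, and flox control 1 also had the most Dcn in smooth muscle, at 4.59% of its fibroblast level. The part of free RNA in these values was not tested.

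Each of the 4 genes with enough UMIs was tested in all 10 pairs of the 5 cell types, and 29 of the 40 tests passed: 8 for Adm and 7 each for Calcrl, Ramp1 and Ramp2. Cell types differ in many genes, and these counts are read against the share of all 12790 genes that passed in the same pair. Between endothelial cells and smooth muscle all 4 genes passed beside 59.6% of all genes, between endothelial cells and fibroblasts 3 beside 55.3%, between endothelial cells and macrophages 2 beside 65.8%, and between endothelial and mast cells 3 beside 42.9%. Smooth muscle differed from fibroblasts in 4 beside 72.7%, from macrophages in 2 beside 80.1% and from mast cells in 2 beside 52.3%. Fibroblasts differed from macrophages in 3 beside 74.5% and from mast cells in 4 beside 47.7%, and macrophages from mast cells in 2 beside 37.9%. Passing is therefore common, and the order and size of the levels say more than the count. The macrophage over mast cell difference of Adm was the least secure pass (log2 fold change 2.04, SE 0.81, adjusted p = 0.048 in edgeR). The adjusted p ranged from 0.0326 to 0.267 when each library was left out in turn and missed the threshold in 5 of 7 cases. It also missed the threshold in edgeR without the TMM factor (0.147), without the low-count filter (0.0677) and with the stricter gate (0.109), and in DESeq2 (0.0657).

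The make-up of the partner genes can be written as the share of each among all Ramp UMIs of a cell type. UMI capture may differ between genes, so these are shares of UMIs and not of proteins. Ramp2 made up 99.3% ± 0.685 of Ramp UMIs in endothelial cells, 3.06% ± 3.19 in smooth muscle, 96.6% ± 0.847 in fibroblasts and 39.4% ± 25.1 in macrophages (SD, n = 7). All 6 pairs of cell types differed in the same direction in 7 of 7 libraries, and each gave p = 0.0156 in an exact two-sided test of sign changes within libraries (adjusted p = 0.0156 over 6 pairs), the smallest p that 7 libraries allow. The difference between endothelial cells and fibroblasts was 2.71 percentage points. The macrophage shares rest on 8 to 65 Ramp UMIs per library and ran from 12.5% to 70.5%, and without the macrophages that clustered with the lymphoid cells they averaged 51.0% ± 21.5. In mast cells Ramp1 made up 75.0% to 100% of Ramp UMIs, from 4 to 25 UMIs in 5 libraries.

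**Figure D2:**
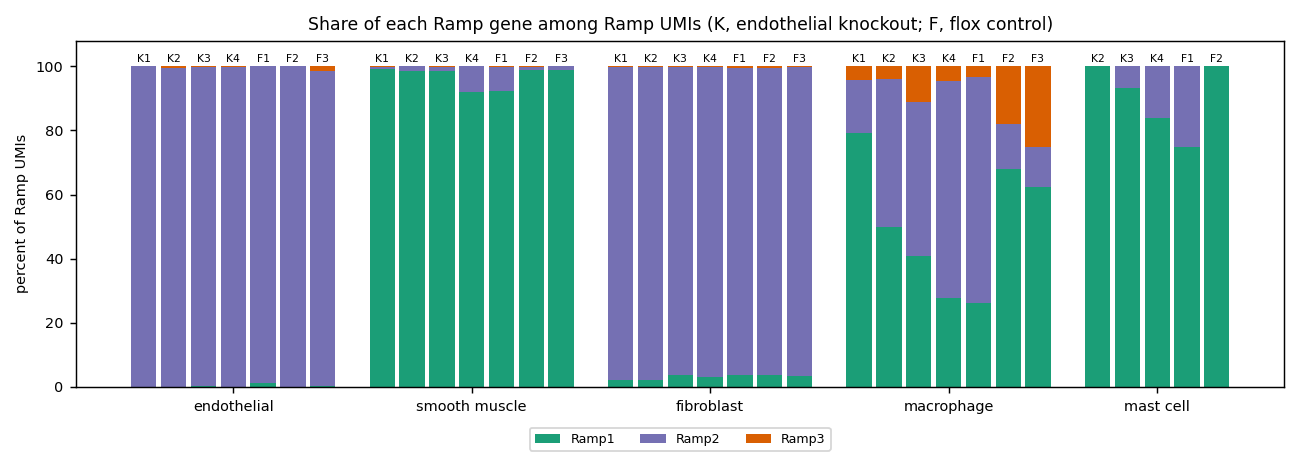
Share of Ramp1, Ramp2 and Ramp3 among all Ramp UMIs (percent, stacked bars from 0 to 100) in each library and cell type, knockouts left of flox controls. Endothelial cells and fibroblasts are almost wholly Ramp2 (means 99.3% and 96.6%), smooth muscle is almost wholly Ramp1 (mean Ramp2 share 3.06%), and macrophages vary between libraries.

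Receptor and partner were also read together in single cells. Ramp2 was read in 81.9% ± 7.05 of endothelial cells, Calcrl in 41.1% ± 6.79 and both in 38.2% ± 7.75 (SD over libraries, n = 7), at 2204 to 3835 median UMIs per cell. Ramp2 was read in 2.42% ± 2.29 of smooth muscle cells at 2617 to 5298 median UMIs, given beside it as the share in the cell type with the lowest mean level. Whether these smooth muscle cells express Ramp2 was not tested. After thinning each cell to 1000 UMIs, which left out 134 endothelial cells of knockouts and 51 of flox controls, the endothelial shares were 66.3% for Ramp2, 21.3% for Calcrl and 15.3% for both. Among endothelial cells with a Calcrl UMI, 94.7% had a Ramp2 UMI, and among those without, 78.5% did. After thinning these were 75.4% and 69.7%, so most of that gap was not seen at equal depth.

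In smooth muscle the partner read beside Calcrl was Ramp1 far more often than Ramp2. Ramp1 was read in 51.8% ± 9.46 of smooth muscle cells, Calcrl in 10.48% ± 5.25 and both in 6.41% ± 3.87 (SD, n = 7), while Ramp1 was read in 1.42% ± 1.69 of endothelial cells. At 1000 UMIs per cell the shares were 18.3%, 3.00% and 0.63%. Pooled over libraries, 63.1% of smooth muscle cells with Calcrl had Ramp1 and 2.40% had Ramp2, and at 1000 UMIs these were 19.8% and 0.65%. Of the cells without Calcrl 54.0% had Ramp1, and 19.2% at 1000 UMIs, so cells with Calcrl held Ramp1 about as often as those without it at equal depth. In fibroblasts Adm was read in 28.8% ± 4.49 of cells and Ramp2 in 51.3% ± 8.83, but Calcrl in 2.83% ± 0.43, at 3952 to 6714 median UMIs. At 1000 UMIs these fibroblast shares were 8.96%, 15.1% and 0.66%. All shares count cells with a UMI, not cells that express the gene.

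Within the main cell types, cells were further split by markers of known states. The 4 genes were tested in each state with edgeR against the cells of the type that entered no state. Cells with an Rgs5 UMI below the cut of 2, for example, stayed in that comparison set. Calcrl was higher in smooth muscle cells with at least 2 Rgs5 UMIs, a gene of pericytes and of some arterial smooth muscle. It stood at 24.9, 32.5, 60.2 and 24.7 CPM in Rgs5-positive cells of knockouts 1 to 4, against 24.1, 20.1, 39.0 and 6.5 in the other smooth muscle cells. In flox controls 1 to 3 it stood at 31.5, 67.8 and 36.2 in Rgs5-positive cells, against 31.8, 26.2 and 19.6. Rgs5-positive cells were thus higher in 6 of 7 libraries, with a log2 fold change of 0.71 (SE 0.17, adjusted p = 0.00473). Calcrl was the only gene of the 4 that passed there, beside 1.95% of 12202 genes tested, and without flox control 2 it missed the threshold (0.56, adjusted p = 0.156).

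In fibroblast states differences in Calcrl and Ramp1 passed, and none in Adm did. Fmod Hhip fibroblasts, named for a matrix proteoglycan and a hedgehog-binding protein, had less Calcrl than other fibroblasts, by a log2 fold change of -0.96 (SE 0.24, adjusted p = 0.00162), at 4.14 ± 1.76 against 7.13 ± 1.87 CPM (SD, n = 7). Calcrl was the only gene of the 4 that passed, beside 16.4% of all genes, and it passed with each library left out in turn. Adventitial progenitor fibroblasts, marked by Pi16 and Dpp4, had more Calcrl (0.78, SE 0.27, adjusted p = 0.0211) and more Ramp1 (0.64, SE 0.24, adjusted p = 0.0411), beside 28.5% of all genes. Calcrl missed the threshold there without flox control 2 (0.69, adjusted p = 0.0848) or without knockout 4 (0.73, adjusted p = 0.0712), and Ramp1 in 5 of 7 such fits, with a highest adjusted p of 0.164. Progenitor Calcrl rested on 113 UMIs and was 5.9, 10.4, 8.8 and 12.2 CPM in knockouts 1 to 4 and 21.8, 18.0 and 18.2 in flox controls 1 to 3, so every knockout lies below every flox control. The fibroblasts that entered no state showed the same order, with 4.69 to 6.74 CPM in knockouts and 8.10 to 10.1 in flox controls from 795 UMIs. Neither difference was tested, and 2.76% of 15352 genes showed this order in progenitor cells and 3.19% in the fibroblasts that entered no state. In the remaining fibroblast states Calcrl overlapped between genotypes. Inflammatory fibroblasts had 4.36 to 6.86 CPM in knockouts and 5.11 to 8.87 in flox controls. Fmod Hhip fibroblasts had 2.31 to 6.06 and 2.27 to 6.20, and Cilp Myoc fibroblasts 2.06 to 5.39 and 0 to 14.6. Against the fibroblasts that entered no state, none of the 4 genes passed in inflammatory fibroblasts (beside 8.2% of genes) or in Cilp Myoc fibroblasts (beside 6.24%). Adm stood at 119 ± 31.7 CPM in inflammatory fibroblasts and 106 ± 20.8 in other fibroblasts (log2 fold change 0.25, SE 0.13, adjusted p = 0.256).

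The macrophage states differed in Ramp1, largely through a small set of cells. Macrophages marked by Ccr2 and the MHC class II genes H2-Ab1 and Cd74 had 28.0, 17.4, 4.9 and 27.6 CPM of Ramp1 in knockouts 1 to 4, against 5.7, 2.6, 2.2 and 1.7 in other macrophages. In flox controls 1 to 3 they had 12.1, 35.8 and 12.7, against 4.0, 4.6 and 4.4. The Ccr2-marked cells were higher in 7 of 7 libraries, by a log2 fold change of 2.68 (SE 0.38, adjusted p = 6.90e-08), and the difference passed with each library left out in turn. It rests on 65 UMIs against 34, and it was the only gene of the 4 that passed, beside 16.1% of all genes. Of the 65 UMIs, 50 lay in 182 Ccr2-marked cells that clustered with the gated lymphoid cells (50.8 CPM) and 15 in the other 617 Ccr2-marked cells (7.46 CPM). Of the 34 UMIs in other macrophages, 6 lay in 15 cells of that cluster. Without the cells of that cluster the Ccr2-marked macrophages had 7.21 ± 5.79 CPM and the other macrophages 2.42 ± 1.39 (SD, n = 7). The log2 fold change was then 1.49 (SE 0.60, adjusted p = 0.116) and did not pass, beside 8.11% of all genes. Resident macrophages, marked by Folr2 and Lyve1, had no pass among the 4 genes, beside 3.36% of all genes.

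Cell types with fewer cells were described over all libraries together, without a test, with exact Poisson intervals that cover counting error only. Lymphatic endothelial cells, which line the vessels that drain tissue fluid, numbered 52. They held Calcrl at 295 CPM (95% interval 239 to 361) and the other endothelial cells at 273 (259 to 288). Ramp2 was 628 (544 to 721) in lymphatic and 1617 (1582 to 1652) in the other endothelial cells. Adm was 65.9 (40.8 to 100.8) in lymphatic cells, from 21 UMIs in 5 of 5 libraries with such cells, and 8.66 (6.29 to 11.6) in the others. The listed receptor genes Gpr182 and Ackr3 also had higher pooled levels in lymphatic cells, with Gpr182 at 87.9 (58.4 to 127) against 19.9 (16.2 to 24.2) and Ackr3 at 641 (556 to 735) against 308 (293 to 323). No lymphatic cell came from knockout 4 or flox control 3, so the mix of libraries differs between the cell sets.

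Mast cells held Ramp1 at 77.2 CPM (59.8 to 98.1), Calcrl at 49.6 (35.9 to 66.8) and Calca at 53.0 (38.8 to 70.7). Both receptor genes were read in mast cells of 6 of 7 libraries, and Calca in 4. Ramp3 had 0 UMIs in mast cells (exact 95% interval 0 to 4.25 CPM), where 3 counts would stand for 3.46 CPM. The 21 adipocytes held 12 Adm UMIs in 2 libraries, or 38.0 CPM (19.6 to 66.4).

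Ramp3, the partner of the other adrenomedullin receptor, was nearly missing from the main cell types of the wall. It had 26 UMIs in endothelial cells, 10 in smooth muscle, 84 in fibroblasts and 21 in macrophages, out of 511 in all kept cells. Of the 21 macrophage UMIs 10 lay in the macrophages that clustered with the lymphoid cells. In endothelial cells it was read in knockouts 2, 3 and 4 and in flox control 3 at 7.95, 4.12, 5.64 and 21.4 CPM and was at 0 in the other 3 libraries. T cells held 100 Ramp3 UMIs, or 215 CPM (175 to 262), in 7 of 7 libraries, with 37 Ramp1 UMIs, or 79.7 CPM (56.1 to 110). Of the 151 T cells, 71 also entered the stricter gate. A further 265 Ramp3 UMIs were in cells that entered no type.

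**Figure D3:**
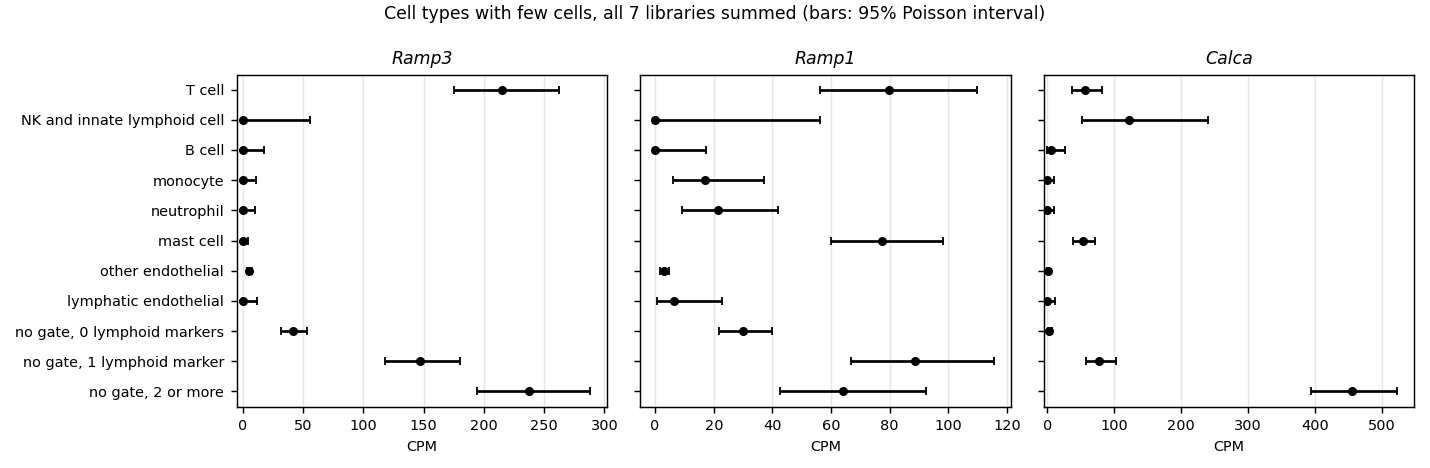
CPM of Ramp3, Ramp1 and Calca in cell types with few cells and, in the lowest rows, in cells without a type from the cluster that holds the lymphoid cells, split by their number of NK and innate lymphoid markers. Libraries are pooled, and bars are exact 95% Poisson intervals for counting error. Ramp3 is high in T cells (215) and in cells without a type that have 1 or at least 2 of these markers (147 and 238). It is near 0 in most other types, and Ramp1 is close in T and mast cells (79.7 and 77.2).

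Between genotypes, none of the 16 tests of the 5 genes within a cell type passed. A log2 fold change above 0 stands for a higher level in the knockout. The count of 0 is from edgeR's quasi-likelihood test with Benjamini-Hochberg adjustment over all genes of the type, and DESeq2 passed 0 as well, while 3 of the 16 had an unadjusted p under 0.05. Over all genes edgeR called 0 of 8252 in endothelial cells (0%, with 6.14% under 0.05 before adjustment), 0 of 12717 in smooth muscle (0%, 4.81%), 0 of 15352 in fibroblasts (0%, 4.55%) and 0 of 10282 in macrophages (0%, 7.3%). In mast cells it called 5 of 2604 (0.192%, with 7.72% before adjustment), none of them from the receptor system. That test had 3 knockout and 2 flox control libraries. Prss34 was higher in the knockout, and Cmss1, Col1a1, Col3a1 and Igfbp7 were lower. Col1a1, a fibroblast marker of the gate, was read in mast cells at 5.87% and 4.21% of its fibroblast level in flox controls 1 and 2. It was at 2.29% or less in knockouts 2 to 4. Dcn was at 3.76% and 2.54% in these flox controls and at 1.79% or less in these knockouts. The part of free RNA in the collagen calls was not tested. The mast cell count was 0 with Leiden clusters or without knockout 4, 2 without knockout 2 and 18 without flox control 2. DESeq2 called 0, 9, 7 and 3 genes in the 4 larger types and 4 in mast cells.

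Ramp2 in endothelial cells was the largest positive value among the 16, and it did not pass. The endothelial levels averaged 1603 ± 337 CPM in knockouts (SD, n = 4) and 1067 ± 254 in flox controls (SD, n = 3), and they overlap, since flox control 3 lies above knockout 1. The log2 fold change was 0.65 (SE 0.27, unadjusted p = 0.0322, adjusted p = 0.770), and it lay between 0.49 and 0.90 when each library was left out in turn. The share of endothelial cells with a Ramp2 UMI was 86.5% ± 4.55 in knockouts and 75.8% ± 4.47 in flox controls, and at 1000 UMIs per cell it was 72.5% ± 7.03 and 58.0% ± 4.51. Across 8248 genes the endothelial log2 fold change fell with the gene's span in the genome (Spearman -0.359 across genes, which are not independent replicates), and Ramp2 spans 13519 bases where the median gene spans 29315. The same coefficient was -0.300 in smooth muscle, -0.229 in fibroblasts and -0.325 in macrophages. Endothelial cells had median mitochondrial shares of 6.97%, 7.23%, 7.46% and 9.86% in knockouts 1 to 4 and 4.73%, 6.35% and 8.47% in flox controls 1 to 3. Lymphatic endothelial cells, with pooled Ramp2 at 628 CPM against 1617 in the other endothelial cells, were absent from knockout 4 and flox control 3. The part of gene span, cell quality and lymphatic cells in the Ramp2 value was not tested.

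No other receptor gene of the endothelium or smooth muscle passed. Endothelial Calcrl averaged 271 ± 53.9 CPM in knockouts and 233 ± 39.6 in flox controls (log2 fold change 0.29, SE 0.23, adjusted p = 0.802). Smooth muscle Ramp1 averaged 198 ± 40.5 in knockouts and 206 ± 8.28 in flox controls (0.03, SE 0.15, adjusted p = 1.00), and smooth muscle Calcrl 28.3 ± 18.1 and 36.7 ± 11.7 (-0.18, SE 0.38, adjusted p = 0.985). Smooth muscle Ramp2 had a log2 fold change of -0.98 (SE 0.78, adjusted p = 0.939), which turned to 0.71 without flox control 1, the library with 17.5 CPM. Fibroblast Adm averaged 110 ± 25.3 in knockouts and 102.2 ± 16.9 in flox controls (0.14, SE 0.20, adjusted p = 0.964). Adm had a log2 fold change of -0.01 (SE 0.40) in endothelial cells, -0.15 (SE 0.25) in smooth muscle and -0.40 (SE 0.37) in macrophages.

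In fibroblasts the smallest p values were those of Ramp3 and Calcrl, both with negative log2 fold changes, and neither passed. Calcrl stood at 5.19, 4.88, 5.56 and 6.48 CPM in knockouts 1 to 4 and at 8.30, 6.48 and 9.11 in flox controls 1 to 3, with a log2 fold change of -0.50 (SE 0.19, unadjusted p = 0.029, adjusted p = 0.950). Ramp3 stood at 0.14, 0.17, 0.19 and 0.23 in knockouts and at 0.90, 0.68 and 0.31 in flox controls, from 4 to 29 UMIs per library. Over 5 genes and 5 cell types it was the only case in which the groups did not overlap, beside 2.77% of 15352 genes in fibroblasts with every knockout below every flox control, with a log2 fold change of -1.81 (SE 0.41, unadjusted p = 0.00137, adjusted p = 0.950). Ramp3 was read in 0.15% ± 0.10 of fibroblasts (SD, n = 7). Fibroblast Ramp2 had a log2 fold change of 0.26 (SE 0.15, adjusted p = 0.950) and fibroblast Ramp1 -0.17 (SE 0.23, adjusted p = 0.964).

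**Figure D4:**
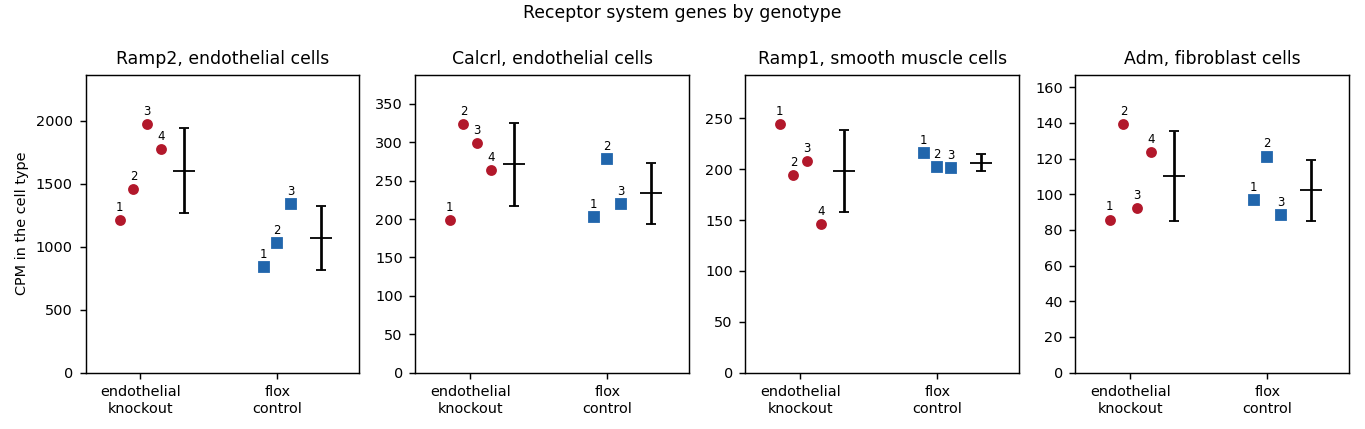
CPM of Ramp2 and Calcrl in endothelial cells, Ramp1 in smooth muscle and Adm in fibroblasts, with 1 numbered point per library, knockouts left of flox controls, and beside each group its mean with bars of 1 SD. Knockout and flox control points overlap in every panel, also for endothelial Ramp2 (means 1603 and 1067).

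Whether the genotype difference itself varied between cell types was tested by an interaction term, with libraries as blocks. None of the 13 tests of the 5 genes passed in edgeR, with 1 unadjusted p under 0.05. Over all genes 0 of 10819 passed for endothelial cells minus smooth muscle (0%, with 3.14% under 0.05 before adjustment), 0 of 13561 for endothelial cells minus fibroblasts (0%, 4.0%) and 0 of 10995 for endothelial cells minus macrophages (0%, 3.34%). Calcrl gave a difference of 0.76 on the log2 scale (SE 0.26, unadjusted p = 0.0108, adjusted p = 1.00) between endothelial cells and fibroblasts. Ramp2 gave 0.41 (SE 0.31) for endothelial cells minus fibroblasts and 1.23 (SE 0.73) minus smooth muscle. The Ramp1 and Ramp2 shares of Ramp UMIs were also compared between genotypes in 4 cell types. None of the 8 exact two-sided permutation tests passed (p from 0.114 to 0.914, adjusted p from 0.457 to 0.914). Each test doubles the smaller tail over 35 splits, so no p under 0.05 could arise and none could have passed. The outcome therefore does not tell whether these shares differ between genotypes.

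**Figure D5:**
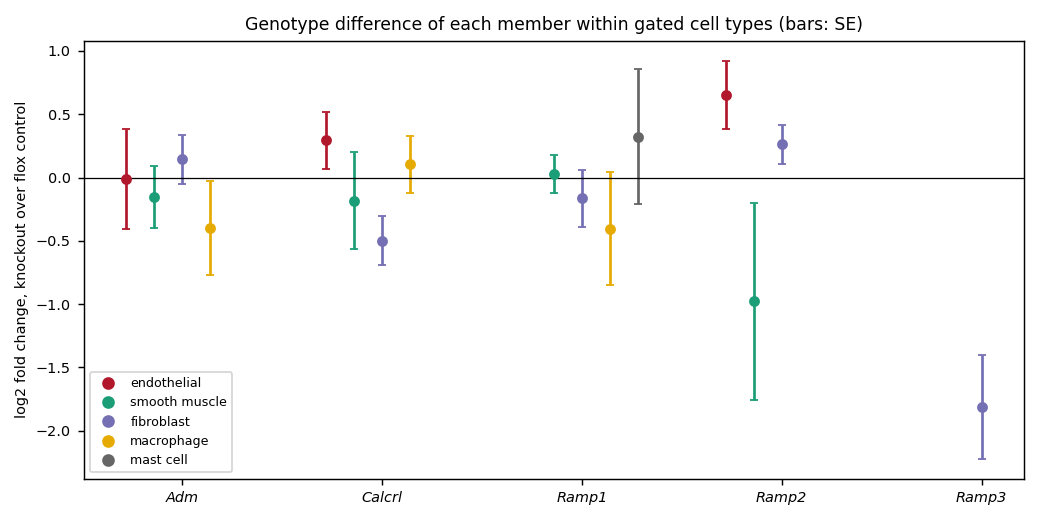
Log2 fold change, knockout over flox control, of the tested genes in each cell type, with bars of 1 SE from edgeR. Only tested pairs of gene and cell type are drawn, which leaves Ramp3 in fibroblasts alone and Ramp1 as the single gene of mast cells. Values run from -1.81 (Ramp3 in fibroblasts) to 0.65 (Ramp2 in endothelial cells), and none passed the adjusted threshold.

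Genes around the receptor were taken from 8 lists. In endothelial cells no gene of any list passed between genotypes, where edgeR called 0 genes in all. Of the 10 genes for ligands and processing 4 were tested and 4 were lower, with a median log2 fold change of -0.01 beside 0.00 over all genes. The smallest p values were those of Pam (-0.02, SE 0.33) and of Cpe, a carboxypeptidase that trims propeptides (-0.02, SE 0.37). Of the receptor parts 2 of 4 tested were higher, with Ramp2 and Calcrl first. Of the peptide clearance genes 4 of 6 tested were higher, with the smallest p for the peptidase gene Dpp3 (-0.43, SE 0.39) and for Ece1, which encodes endothelin-converting enzyme (0.23, SE 0.22). Of the cyclic AMP genes 7 of 20 tested were higher (median -0.04). Adcy3, an adenylyl cyclase gene, averaged 7.73 ± 2.49 CPM in knockouts and 19.5 ± 4.38 in flox controls (-1.14, SE 0.40, adjusted p = 0.770), and Adcy4 averaged 61.4 ± 6.52 and 83.4 ± 23.9 (-0.41, SE 0.22, adjusted p = 0.770).

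The remaining endothelial lists gave no pass either. Among other vasodilator receptors the 2 tested were Ptger4, a prostaglandin E2 receptor gene (0.30, SE 0.34), and Vipr1, a receptor gene for vasoactive intestinal peptide (0.31, SE 0.72). Of the HIF targets, a list taken because Adm is one, 6 of 16 tested were higher (median -0.15), with the smallest p for the demethylase gene Kdm3a (-0.58, SE 0.31) and for Egln3, an oxygen-sensing hydroxylase gene (-0.93, SE 0.58). Of the digestion and immediate early genes 2 of 14 were higher (median -0.22), with the smallest p for the transcription factor gene Atf3 (-0.57, SE 0.32) and for the heat shock gene Hspa1b (-0.60, SE 0.37). Of the inflammatory genes 5 of 9 tested were higher, with the smallest p for the chemokine gene Ccl2 (0.97, SE 0.52) and for Ptgs2, which encodes cyclooxygenase 2 (-0.79, SE 0.51). In the 4 other cell types no gene of any list passed either, and the lists described here were chosen after their values were seen. The inflammatory list was lower in 12 of 13 genes in smooth muscle (median -0.22), in 11 of 13 in fibroblasts (-0.44), in 13 of 13 in macrophages (-0.74) and in 5 of 6 in mast cells (-0.09), beside medians between -0.01 and 0.00 over all genes. Lists leaned both ways: 12 of 14 immediate early genes were higher in macrophages (median 0.20) and 3 of 4 vasodilator receptor genes were higher there (0.35), while 4 of 4 vasodilator receptor genes were lower in smooth muscle (-0.36) and 3 of 4 ligand and processing genes were lower in macrophages (-0.44).

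The same lists separated endothelial cells from smooth muscle, where 59.6% of all genes passed and the median over all genes was -0.03. Of 6 receptor parts tested, 4 were higher in endothelial cells, beside 27.7% of all genes, and 1 was lower, beside 31.9%. Besides Ramp2 and Ramp1 the largest was the receptor gene Gpr182, at 29.2 CPM in endothelial cells and 0.06 in smooth muscle (log2 fold change 7.81, SE 0.41, adjusted p = 2.08e-14). Of 4 ligand and processing genes 2 were lower, Adm and Cpe (-1.01, SE 0.24), and Pam and Furin did not pass. Among cyclic AMP genes 9 were higher and 9 lower of 24. The adenylyl cyclase gene Adcy4 was higher, at 70.8 against 1.52 CPM (5.57, SE 0.24), and so was Rapgef3, which encodes a cyclic AMP sensor that acts on Rap1 (4.63, SE 0.30). Adcy5, another adenylyl cyclase gene, was lower, at 34.7 against 538 (-4.40, SE 0.27).

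Of the 8 clearance genes 4 were higher and 2 lower, among them Ece1 (4.44, SE 0.14) and Ace, which encodes angiotensin-converting enzyme (2.54, SE 0.21). Of 9 other vasodilator receptors 5 were higher, led by Vipr1 (4.92, SE 0.52), Ptger4 (4.58, SE 0.22) and Vipr2 (3.35, SE 0.48). Of 18 HIF targets 6 were higher and 9 lower, with the hexokinase gene Hk2 lower (-2.28, SE 0.25) and Vegfa (2.15, SE 0.18) and Ddit4 (1.44, SE 0.19) higher. Of 14 immediate early genes 9 were higher, led by Ier3 (1.54, SE 0.23), Zfp36 (1.51, SE 0.21) and Fosb (1.30, SE 0.20). Of 14 inflammatory genes 13 were higher, led by Nos2 (7.15, SE 0.83), the adhesion molecule gene Icam1 (5.15, SE 0.23) and the cytokine gene Lif (2.77, SE 0.54). Nos2 averaged 6.15 CPM in endothelial cells and 0.02 in smooth muscle, so its fold change rests on few UMIs.

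The genes whose pattern was most like that of each member were found by Pearson correlation of log2 CPM with a prior count of 2 over 33 sums of 5 cell types, as a description. Adm was most like Etfa (r = 0.92), Anxa1, Thbs3, Ccn5 and Cd302 (r = 0.90 for the last), all highest in fibroblasts. Calcrl was most like Cemip2 (r = 0.93), Ggta1, Ralgapa2, Atp2a3 and Acer2 (r = 0.84 for the last), all highest in endothelial cells. Ramp1 was most like Emd (r = 0.88), P2rx1, Fam129a, Lnpep and Slc24a3 (r = 0.86 for the last), of which Fam129a was highest in smooth muscle, as Ramp1 is, and the other 4 in mast cells. Ramp2 was most like Fgd5 (r = 0.96), Sfrp1, Unc45b, the angiopoietin receptor gene Tek and Tnk1 (r = 0.94 for the last), again all highest in endothelial cells. Between members, r was 0.29 for Calcrl and Ramp2, -0.23 for Calcrl and Ramp1 and -0.68 for Ramp1 and Ramp2. The sums share libraries and cell types, so these values describe which cell types hold a gene.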

How the data were processed

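Single cells of aorta were read in 4 endothelial knockout and 3 flox control libraries. The files the authors deposited hold counts of UMIs by gene and barcode, not normalized. Per the labels' protocols the tissue was digested by an enzyme mix (proteases, DNase, hyaluronidase), and cells were stained with Calcein-AM and Draq7. The submitters' processing notes name STARsolo 2.7.10a, CASAVA 1.8, Seurat and build mm10, and the sources used here do not give their settings or the annotation. Libraries held 6167 to 13792 barcodes and 22646246 to 73102988 UMIs, and 0 barcodes lacked a library. Groups came from the genotype label, and the numbers of the libraries only name them.

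Barcodes with under 200 genes or over 25% mitochondrial UMIs were removed, as were doublets called by Scrublet in scanpy 1.11.5 (0.869% to 2.07% of cells). The thresholds of the marker gate were set after the files were read. UMIs were summed per library and cell type with at least 20 cells and tested with edgeR 4.0.16 in R 4.3.3 (TMM factors, filterByExpr, quasi-likelihood test, Benjamini-Hochberg adjusted p under 0.05), with genotype as the term or with the library as a block between cell types. SE is the absolute log2 fold change over the square root of F. Shares of Ramp UMIs were tested by exact permutation in scipy 1.17.1. DESeq2 1.42.0, no TMM factor, no low-count filter, a stricter gate, Leiden clusters, kept doublets, a stricter cell filter (10% and 500 genes), a replicate block and leaving out each library were the alternatives, and 2 were added after the data were seen: leaving out libraries in the cell states, and leaving out the gated macrophages that lie in the cluster of the gated lymphoid cells. The edgeR fits of genotype in endothelial cells and fibroblasts were run on simulated counts with known changes. So were the difference between endothelial cells and smooth muscle and its interaction with genotype. The other fits and DESeq2 were not simulated, and the recovery is not given here.

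The 5 genes, the 8 lists and the tests were chosen with earlier results of these data known. Genes were named by rule: the 5 members always, from each list up to 4 genes that passed between genotypes or else the 2 with the smallest p, the 3 largest passing differences per list between endothelial cells and smooth muscle, and the 5 genes most like a member. A clearance gene that the rule names is not reported here. Mast cell genes called between genotypes were named after their values were seen.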

Additional observations from a re-analysis of the deposited data

Results flagged for a closer look

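Ramp2 in smooth muscle stood at 12.6 CPM in knockout 4, while knockouts 1, 2 and 3 had 1.81, 3.06 and 3.17, and in macrophages at 16.8 in knockout 4, while the other knockouts had 2.13, 3.11 and 3.44. Each of these values lies far from the other 3 of its group. The same comparison was made in 16 groups of knockout libraries with at least 50 UMIs, and chance marks about 1 in 20 groups. The smooth muscle value rests on 18 UMIs in 338 cells and the macrophage value on 44 UMIs in 629 cells. Dcn was read at 1.46% of its fibroblast level in smooth muscle of knockout 4 and at 2.05% in its macrophages, against 0.649% to 1.04% and 0.619% to 1.25% in the other knockouts.

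Cells that entered no type, and thus no comparison, held 257 Ramp3 UMIs and 251 Calca UMIs within the cluster that contains the gated lymphoid cells. That cluster had 1633 kept cells, of which 1004 entered no type, 197 were gated macrophages and 74 were gated monocytes. It held 74.0% of all Ramp3 UMIs and 68.4% of all Calca UMIs. Among the ungated cells of the cluster, Ramp3 was at 41.2 CPM (95% Poisson interval 31.6 to 52.8) in the 628 with no marker of NK and innate lymphoid cells, at 147 (118 to 180) in the 205 with 1 such marker and at 238 (194 to 288) in the 171 with 2 or more. Calca was at 2.66 (0.724 to 6.80), 77.5 (57.1 to 103) and 455 (394 to 523) in the same sets, where the highest level came from 199 UMIs in 38 cells. The 25 gated NK and innate lymphoid cells held 0 Ramp3 UMIs (95% interval 0 to 56.1 CPM). They held 8 Calca UMIs, or 122 CPM (52.5 to 239.7). Over the whole cluster Ramp3 was at 15.1, 65.7, 188.8 and 46.5 CPM in knockouts 1 to 4 and at 100.3, 113.6 and 104.4 in flox controls 1 to 3, and the groups overlap. The cluster stayed unnamed, and no difference in it was tested.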

How the results depend on the processing

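No alternative gave a pass among the 16 genotype tests or the 13 interactions of the 5 genes, 28 to 31 of the 40 differences between cell types passed, and the Ramp2 share differed in 6 of 6 pairs of cell types under each alternative run. Of 560 values for differences between cell types 522 kept direction and call, 9 were lost, 16 gained and 13 turned in sign. All 9 lost values were those of Adm in macrophages over mast cells. Genes called between genotypes over all genes depended on the processing: without the low-count filter 59 in endothelial cells, 7 in smooth muscle, 33 in macrophages and 27 in mast cells. DESeq2 gave 9 in smooth muscle, 7 in fibroblasts and 3 in macrophages. In mast cells no TMM factor gave 8 and Leiden clusters gave 0, against 5. With libraries left out in turn the ranges were 0 to 0 in endothelial cells, 0 to 3 in smooth muscle, 0 to 5 in fibroblasts, 0 to 1 in macrophages and 0 to 18 in mast cells. Thinning lowered endothelial cells with Calcrl and Ramp2 to 15.3%, against 38.2%.

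The numbers of the libraries were given in accession order, since the titles of flox controls 1 and 2 both carry the replicate number 1, so the block rests on assigned numbers. The numbers were not used as pairs in the reported tests, and assigned numbers cannot show whether libraries belong together. The deviations of same-numbered libraries correlated at -0.03 to 0.16 in endothelial cells, 0.05 to 0.18 in smooth muscle and -0.03 to 0.22 in fibroblasts. In macrophages they correlated at -0.07 to 0.05, and in mast cells at 0.04 for number 2. With a replicate block edgeR called 5 genes in smooth muscle, 8 in fibroblasts and 1 in macrophages, and Adm in endothelial cells turned to 0.25.

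The sign of some log2 fold changes turned, and the cause was not tested. Between genotypes, Adm in endothelial cells was 0.053 in DESeq2 and 0.039 without the low-count filter, Adm in smooth muscle 0.57 with the stricter cell filter, and Ramp1 in smooth muscle -0.047 without TMM and -0.15 with the stricter cell filter. Between cell types, Adm in endothelial cells over macrophages was 0.064 without TMM and Ramp2 in smooth muscle over macrophages 0.011 in DESeq2. Ramp2 in smooth muscle over mast cells was -0.42 without TMM, -0.20 with the stricter gate and -1.30 with Leiden clusters, and Ramp2 in macrophages over mast cells was -0.10, -0.037 and -1.11 in the same settings. Ramp1 in fibroblasts over macrophages was 0.49 with Leiden clusters and 0.69 without the macrophages that clustered with the lymphoid cells, and passed in both (adjusted p = 0.037 and 0.0199).

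Leaving out single libraries turned the sign of these genotype values: Adm in smooth muscle (-0.32 to 0.21) and fibroblasts (-0.0021 to 0.27), Calcrl in smooth muscle (-0.65 to 0.095) and macrophages (-0.020 to 0.32), Ramp1 in smooth muscle (-0.086 to 0.13), fibroblasts (-0.34 to 0.0052) and mast cells (-0.015 to 1.14), and Ramp2 in smooth muscle (-1.43 to 0.71). It also turned Ramp2 in smooth muscle over mast cells (-0.37 to 0.42) and the Ramp2 interactions of endothelial cells minus smooth muscle (-0.15 to 1.84) and minus macrophages (-0.97 to 1.79). Values of Ramp3 and of the small cell types rest on few UMIs.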
